A study of Mus musculus with 568 samples.

Results

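The 10 genes described here belong to the transcriptional program of the stress-induced factor ATF4: Atf4, Ddit3, Atf3, Trib3, Chac1, Nupr1, Ddit4, Asns, Psat1 and Slc7a11. Among single cells measured after co-culture with gonadal and mesonephric somatic cells, Trib3, Chac1 and Nupr1 led a group of Nanog-rich cells. The genes were chosen by name for this reason. All 10 were found in both expression tables, of 16335 genes in the bulk table and 15718 in the single-cell table, and 10 of 10 passed the filter on low bulk values. None of the 10 lies on the X chromosome (0 of 10 in GENCODE vM21, GRCm38).

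When a cell runs short of amino acids, accumulates unfolded protein or is otherwise stressed, kinases phosphorylate the initiation factor eIF2, general translation slows, and the Atf4 messenger is translated more efficiently. ATF4 pairs with C/EBP and related factors on composite C/EBP-ATF elements and switches on genes for amino acid synthesis and import, tRNA charging, redox balance and, under long stress, cell death. Because Atf4 is regulated largely through translation, its RNA level is not a measure of the protein. Pluripotent stem cells in culture are known for high amino acid demand.

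The study followed X-chromosome inactivation and reactivation in female mouse germ cells made in vitro. All groups descend from one female line of embryonic stem cells (ESCs), a cross of 129S1/SvImJ and CAST/EiJ, with a truncated Tsix allele on the 129 X chromosome (X-mus), a GFP reporter on that X, a tdTomato reporter on the CAST X, rtTA at Rosa26, and doxycycline-inducible Prdm14, Blimp1 and Tfap2c transgenes. Bulk libraries, 4 per group, came from ESCs in medium with 2 inhibitors and LIF (2i/LIF), from epiblast-like cells (EpiLCs) grown in bFGF and activin A with passaging at 48 h, and from primordial germ cell-like cells (PGCLCs) after 5 days with doxycycline, sorted as SSEA1+/CD61+ and as XGFP+ (reporter X active) or XGFP- (reporter X silenced). Single cells came from reconstituted ovaries (rOvaries), in which sorted PGCLCs were aggregated with female gonadal and mesonephric somatic cells of E13.5 embryos that carry no reporter. The aggregates were cultured for 6 days. For the somatic cells of rOvaries the paper names the CD1/ICR strain. Cells from XGFP- PGCLCs were sorted as XGFPhigh, XGFPintermediate or XGFPlow, cells from XGFP+ PGCLCs as constitutive XGFP+, and 24 single ESCs and 10 empty wells were processed beside them.

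Medium, growth factors and doxycycline changed together with the group, so culture conditions and cell state cannot be told apart in any comparison with ESCs or EpiLCs. The study describes the 4 libraries of a group in one place as 2 clones with 2 technical replicates each and in another as 4 biological replicates, and the labels name no clone, so p-values cover only the spread between these libraries, which may be technical. In these bulk samples, fewer cells of a type and less RNA per cell cannot be told apart. Recovered reads ran from 29778299 to 46533858 per bulk library. Nanog, a pluripotency factor, ran from 30164 to 33204 normalized counts in ESCs and from 2883 to 4055 in EpiLCs, and the germ cell gene Dppa3, which is not one of the transgenes, was 3.84 ± 0.14 (SE) log2 units higher in XGFP+ PGCLCs than in EpiLCs (limma, adjusted p = 6.4e-14). Of 5 germ cell markers (Dazl, Ddx4, Dppa3, Dnd1 and Prdm1, the Blimp1 gene), 4 were higher and 0 lower in XGFP+ PGCLCs than in EpiLCs. In XGFP- PGCLCs 3 were higher and 1 lower than in EpiLCs. Of all genes tested, 27.8% and 29.9% were higher in these comparisons. Of 9 gonadal somatic markers 5 passed the filter on low values: 2 were higher (Fst and Wt1) and 2 lower in EpiLCs than in ESCs, and from EpiLCs 3 were lower in XGFP+ and 5 in XGFP- PGCLCs. In the PGCLC libraries these 5 ran from 0 to 85.8 normalized counts, and their part in the members' differences was not tested.

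The promoter stretches that hold the core of the C/EBP-ATF element are shown for Trib3, Chac1 and Nupr1, which led the Nanog-rich cells, and for Slc7a11, which had the largest difference of the members from EpiLCs to XGFP+ PGCLCs and 2 copies of the core. All 10 members were matched in the RefSeq promoter table (GRCm38.p6, 250 bases before to 50 after each start site), and TGATGNAA, searched on both strands, was present in 6 of them: Trib3, Chac1, Nupr1, Asns, Slc7a11 and Atf3. The same letters were present in 4.0% of the 32851 promoters of the table and for 4.5% of 27025 genes. No match was found in the windows of Atf4, Ddit3, Psat1 and Ddit4. Capitals mark the 8-base match, each sequence reads 5′ to 3′ on the gene's strand, and a match is only a description of the letters.
Trib3 (chr2:152344028-152344057, minus strand, bases 4 to 33 after the RefSeq start): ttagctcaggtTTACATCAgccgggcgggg
Chac1 (chr2:119351009-119351096, plus strand, upstream): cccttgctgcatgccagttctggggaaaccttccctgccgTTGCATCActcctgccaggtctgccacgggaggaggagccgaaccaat
Nupr1 (chr7:126625533-126625620, minus strand, upstream): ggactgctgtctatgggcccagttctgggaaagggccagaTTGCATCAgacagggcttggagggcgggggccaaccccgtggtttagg
Slc7a11 (chr3:50443614-50443719, minus strand, upstream): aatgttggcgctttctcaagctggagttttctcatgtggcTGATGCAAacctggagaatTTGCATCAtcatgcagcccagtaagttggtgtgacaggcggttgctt

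Across the 4 bulk groups, all 10 members had their lowest mean in EpiLCs or PGCLCs. The means of 6 members (Atf4, Ddit3, Trib3, Chac1, Nupr1 and Psat1) were lower in EpiLCs than in ESCs and lower again in both PGCLC groups, though not every step passed the test. Asns was lowest in EpiLCs, and Slc7a11, Ddit4 and Atf3 had their highest mean there. Values below are normalized counts as deposited, in the order of libraries 1 to 4 unless a range is given. A gene was called when its limma adjusted p, over all 16281 genes tested, was below 0.001, and fold changes are on the log2(normalized count + 1) scale.

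**Figure D1:**
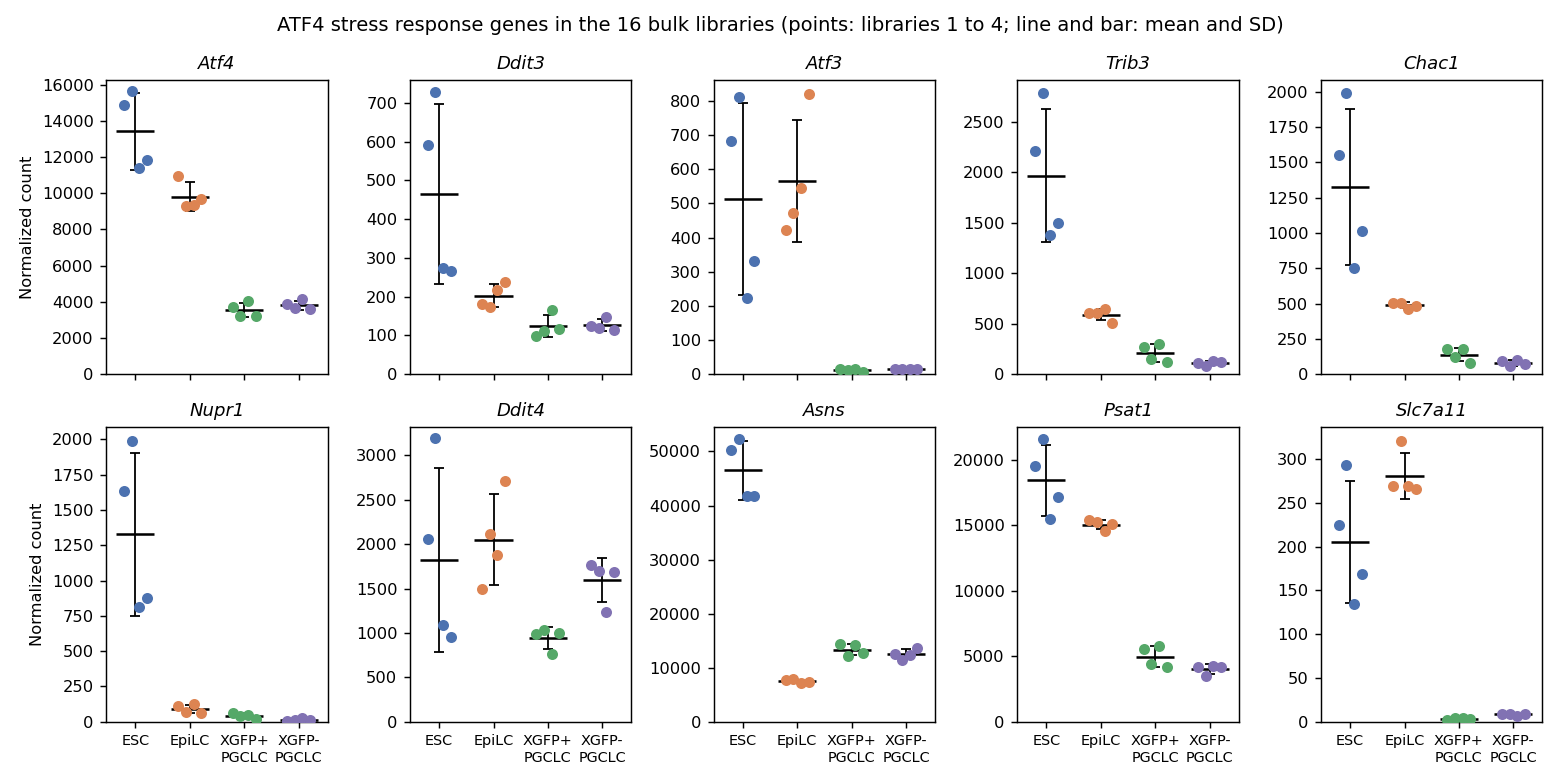
Normalized counts (y axis, from 0) of the 10 genes in the 16 bulk libraries by group (x axis); points are libraries 1 to 4, and line and bar are the mean and SD (n = 4). ESC libraries 1 and 2 lie above libraries 3 and 4 for all 10 genes, and Asns is lowest in EpiLCs.

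Between ESCs and EpiLCs, 5 of the 10 members were called, all 5 lower in EpiLCs, where 47.8% of all genes tested were called in either direction and 22.9% were called lower. The members' median log2 fold change was -0.75, against 0.01 over all genes tested. Nupr1, a small chromatin-associated stress protein, counted 1631, 1986, 814 and 877 in ESCs and 110.9, 70.2, 123.2 and 65.2 in EpiLCs. The groups did not overlap, and the difference was 13.7-fold (log2 -3.78 ± 0.37 SE, adjusted p = 3.7e-08).

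Trib3, a pseudokinase that dampens ATF4 activity, counted 2210, 2783, 1376 and 1496 in ESCs and 604, 610, 642 and 510 in EpiLCs, a 3.20-fold lower value in EpiLCs (adjusted p = 1.4e-05). Chac1, which degrades glutathione, counted 1552, 1988, 752 and 1012 in ESCs and 505, 501, 462 and 483 in EpiLCs (log2 -1.34 ± 0.27 SE, adjusted p = 0.00026). For both genes the EpiLC libraries lay close together below every ESC library, and ESC libraries 1 and 2 stood above libraries 3 and 4. The call for Chac1 was lost without EpiLC library 3 (adjusted p = 0.0010), ESC library 1 (0.0015) or ESC library 2 (0.0013), limma in each case.

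Asns, which makes asparagine from aspartate and glutamine, counted 50224, 52223, 41822 and 41772 in ESCs and 7632, 7816, 7107 and 7263 in EpiLCs. Every ESC library was at least 41772 and every EpiLC library at most 7816, and the 6.21-fold difference had the smallest adjusted p of the members (log2 -2.63 ± 0.08 SE, 3.7e-15, limma). Psat1, the aminotransferase of serine synthesis, ran from 15481 to 21598 in ESCs and from 14559 to 15389 in EpiLCs and was not called (log2 -0.28 ± 0.11 SE, adjusted p = 0.026). The pair of amino acid enzymes thus differed in size of response over the same step.

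Atf4 itself ran from 11367 to 15640 in ESCs and from 9313 to 10961 in EpiLCs, a 1.36-fold lower mean (log2 -0.44 ± 0.10 SE, adjusted p = 0.00064). This call was lost with quantile normalization (0.0016), in a fit of the 2 groups alone (0.0025) and without any of 5 single libraries, EpiLC 2, 3 or 4 or ESC 1 or 2, where the limma adjusted p ran from 0.0021 to 0.0036. Ddit3, which encodes the pro-apoptotic factor CHOP, counted 590, 728, 273 and 267 in ESCs against 174 to 237 in EpiLCs; it missed the threshold (adjusted p = 0.0014) and passed with edgeR's quasi-likelihood test (0.00044) and DESeq2 (1.3e-05) on recovered reads. The annotation holds 2 overlapping gene models named Ddit3, and reads shared between them may be counted for neither.

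Atf3, an early stress-induced bZIP factor, Ddit4, an inhibitor of mTORC1, and Slc7a11, the cystine importer, overlapped between ESCs and EpiLCs. Atf3 counted 684, 813, 222 and 333 in ESCs and 422, 473, 544 and 822 in EpiLCs (adjusted p = 0.48). Ddit4 ran from 956 to 3195 and from 1499 to 2715 (0.34), and Slc7a11 from 134.6 to 293 and from 266 to 320 (0.079, limma). None of the 3 was called, and the sign for Atf3 turned without ESC library 3 (log2 -0.06).

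From EpiLCs to XGFP+ PGCLCs, 6 members were lower and 1, Asns, was higher, with 57.3% of all genes called in either direction (29.5% lower, 27.8% higher). From EpiLCs to XGFP- PGCLCs, 7 were lower and Asns was again the 1 member higher, with 61.9% of all genes called (31.9% lower, 29.9% higher). Both comparisons use the same EpiLC libraries. The members' median log2 fold changes were -1.53 and -2.18, against 0 and -0.03 over all genes tested.

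Slc7a11 had the largest difference of the members in XGFP+ PGCLCs: 269, 320, 269 and 266 normalized counts in EpiLCs, and 1.81, 3.75, 4.79 and 2.69 in XGFP+ PGCLCs, where these values stand for 2 to 5 reads per library. The log2 fold change was -6.10 ± 0.25 SE (adjusted p = 2e-13, limma). In XGFP- PGCLCs it counted 8.67, 9.14, 6.73 and 9.28, and was 4.90 log2 units below EpiLCs (log2 -4.90 ± 0.25 SE, 2.3e-12). The cystine importer was represented by at most 10 reads in any PGCLC library.

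Atf3 followed a similar course: from 422 to 822 in EpiLCs, its levels went to between 7.16 and 16.3 in XGFP+ and to between 14.4 and 16.5 in XGFP- libraries. Its log2 fold changes from EpiLCs were -5.42 ± 0.33 SE (adjusted p = 4.8e-11) and -5.06 ± 0.33 SE (9.2e-11, limma). Immediate early genes, which respond within minutes to serum, growth factors and cell handling, moved with it: 7 of 8 were lower in XGFP+ PGCLCs than in EpiLCs, Fos by 3.19 log2 units (log2 -3.19 ± 0.18 SE, 2e-11). Their part in the Atf3 difference was not tested.

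In XGFP+ PGCLCs Trib3 counted 273, 150, 302.5 and 119.1, while XGFP- PGCLCs had 109.2, 80.3, 127.9 and 116.5, all below the lowest EpiLC library at 510. The differences from EpiLCs were log2 -1.58 ± 0.26 SE (adjusted p = 2.2e-05) and -2.45 ± 0.26 SE (7.5e-08, limma). In XGFP+ PGCLCs Chac1 counted 175, 120.2, 181 and 79.7, while XGFP- PGCLCs had 90.1, 56.9, 99.1 and 69.1, so that it was 3.67-fold and 6.27-fold lower than in EpiLCs. Both genes were called in both comparisons.

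For Nupr1 the XGFP+ libraries had 64.4, 37.5, 50.7 and 22.4 and the XGFP- libraries 6.93, 11.2, 23.1 and 13.4. XGFP+ PGCLCs missed the threshold against EpiLCs (log2 -1.11 ± 0.37 SE, adjusted p = 0.011), and XGFP- PGCLCs passed it (log2 -2.73 ± 0.37 SE, 1.7e-06, limma). The highest XGFP- library, at 23.1, lay just above the lowest XGFP+ library, at 22.4.

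For Asns the XGFP+ libraries had 14329, 12146, 14131 and 12793 and the XGFP- libraries 12612, 11445, 12297 and 13708. All 8 PGCLC libraries lay above the 4 EpiLC libraries and below the 4 ESC libraries, with 1.79-fold and 1.68-fold higher means than in EpiLCs (adjusted p = 1.6e-08 and 6.5e-08, limma). Psat1 took the opposite course, at 4209 to 5759 and 3479 to 4272 in the PGCLC groups against 14559 to 15389 in EpiLCs. Its log2 fold changes were -1.61 ± 0.11 SE (1.2e-10) and -1.91 ± 0.11 SE (7.8e-12).

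The XGFP+ libraries had 3188 to 4019 counts of Atf4 and the XGFP- libraries 3574 to 4130, 2.78-fold and 2.57-fold below EpiLCs (adjusted p = 1.5e-10 and 3.4e-10, limma). Ddit3 was called in neither comparison (adjusted p = 0.018 and 0.026). Ddit4 counted 988, 1035, 762 and 999 in XGFP+ PGCLCs, below every EpiLC library, with an adjusted p of 0.0016 that passed in the fit of the 2 groups alone (5.1e-05). In XGFP- PGCLCs Ddit4 counted 1766, 1699, 1236 and 1690, overlapping EpiLCs (0.27).

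**Figure D2:**
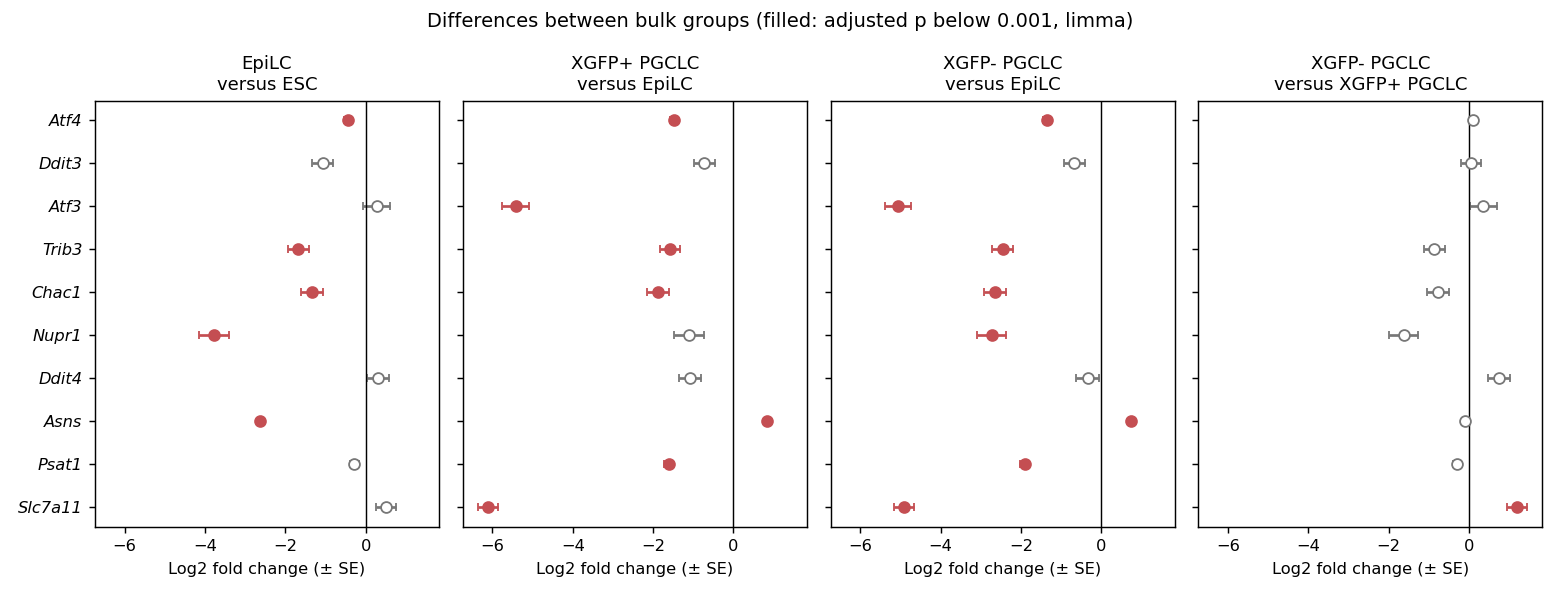
Log2 fold changes (x axis, ± SE, 4 libraries per group) of the 10 genes (y axis) in 4 bulk comparisons; filled points have a limma adjusted p below 0.001. Asns lies left of 0 between EpiLCs and ESCs and right of 0 from EpiLCs to both PGCLC groups, and in the last panel 1 point, Slc7a11, is filled.

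Against ESCs, 9 of 10 members were lower in XGFP+ PGCLCs and 9 of 10 in XGFP- PGCLCs, where 49.9% and 59.4% of all genes were called in either direction (24.9% and 29.6% lower). Ddit4 was the 1 member not called in each (adjusted p = 0.017 and 0.92, limma). Members' median log2 fold changes were -2.57 and -3.09, against 0 and 0 over all genes. Nupr1 was 29.5-fold lower in XGFP+ PGCLCs (log2 -4.88 ± 0.37 SE) and 91.2-fold lower in XGFP- PGCLCs (log2 -6.51 ± 0.37 SE), both against the same ESC libraries.

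The comparison of XGFP- with XGFP+ PGCLCs asks how the members differ between cells of the same day and medium that were sorted by the state of the reporter X. The paper reports that these sorts also differ in cell cycle phase and in the levels of pluripotency and early germ cell genes. Their parts and that of the X cannot be told apart here. Here 1 of 10 members was called, Slc7a11, against 23.8% of all genes in either direction (11.3% higher, 12.5% lower), and the members' median log2 fold change was -0.02, against 0.01 over all genes. The Slc7a11 libraries did not overlap, at 1.81 to 4.79 and 6.73 to 9.28, and it was 1.19 ± 0.25 (SE) log2 units higher in XGFP- PGCLCs (adjusted p = 0.00066, limma). These are 2 to 5 and 7 to 10 reads per library, and the call was lost with a pseudocount of 10 (0.032), with the limit on low values raised to 100 (0.0013), in the fit of the 2 groups alone (0.010), with edgeR (0.025), with DESeq2 (0.015) and in 6 of the 8 fits without 1 library, without XGFP+ library 1, 2 or 4 or XGFP- library 1, 2 or 4.

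Ddit4 ran from 762 to 1035 in XGFP+ and from 1236 to 1766 in XGFP- PGCLCs, log2 0.75 ± 0.28 SE. Its adjusted p was 0.031 in the fit of all 16 libraries and 0.00039 in the fit of the 2 groups alone. Trib3, Chac1 and Nupr1 had lower means in XGFP- PGCLCs and overlapped in at least 1 library, with log2 differences of -0.87 ± 0.26, -0.77 ± 0.27 and -1.63 ± 0.37 (SE) and adjusted p-values of 0.0099, 0.026 and 0.0013. XGFP+ libraries 1 and 3 were the higher pair for all 3 genes. Same-numbered libraries of these groups deviated together, and in each of the 4 number pairs all 3 genes were lower in the XGFP- library; with the replicate number as a block the limma adjusted p-values were 0.0081, 0.021 and 0.0012. Nupr1 passed with DESeq2 (0.00072) and without XGFP+ library 4 (0.00041) or XGFP- library 3 (0.00044). Atf4 (adjusted p = 0.39), Ddit3 (0.88), Atf3 (0.40), Asns (0.35) and Psat1 (0.025, limma) were not called.

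The other genes of the pathway were described by lists. A count near the share over all genes is not a result about the list. Of all genes tested, 22.9% were lower and 24.9% higher in EpiLCs than in ESCs. From EpiLCs to XGFP+ PGCLCs these shares were 29.5% and 27.8%, and to XGFP- PGCLCs 31.9% and 29.9%. In XGFP- against XGFP+ PGCLCs they were 12.5% and 11.3%. The 12 cytosolic aminoacyl-tRNA synthetases, which charge tRNAs with amino acids, were lower in EpiLCs than in ESCs in 8 of 12 and higher in 0, led by Nars (log2 -0.75 ± 0.09 SE). From EpiLCs to XGFP+ PGCLCs, 10 of 12 were lower (median log2 -0.66), led by Tars (-1.19 ± 0.06 SE) and Yars (-1.08 ± 0.08 SE), and from EpiLCs to XGFP- PGCLCs 11 of 12. Against ESCs all 12 of 12 were lower in both PGCLC groups, with medians of -1.02 and -1.21. Between the PGCLC groups 1 of 12 was called, Tars (log2 -0.40 ± 0.06 SE), against 23.8% of all genes in either direction.

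Of 13 genes for serine, glycine, proline and one-carbon synthesis, 7 were lower in EpiLCs than in ESCs and none (0) higher, led by Pycr1 (log2 -1.68 ± 0.19 SE), the last enzyme of proline synthesis. From EpiLCs to XGFP+ PGCLCs 9 were lower and 2 higher. Phgdh, the first enzyme of serine synthesis, led with log2 -2.22 ± 0.14 SE, then Mthfd2 of the mitochondrial folate pathway with -1.49 ± 0.13 SE. In XGFP- against XGFP+ PGCLCs 3 were lower, among them Cth, which makes cysteine from cystathionine (log2 -1.42 ± 0.17 SE), and Gpt2 (-1.36 ± 0.14 SE).

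Amino acid transporters were mixed between EpiLCs and ESCs, with 3 of 9 higher and 3 lower. From EpiLCs to XGFP+ PGCLCs 7 of 9 were lower and 0 higher, led by the neutral amino acid carriers Slc1a4 (log2 -1.93 ± 0.16 SE) and Slc1a5 (-1.86 ± 0.10 SE). In XGFP- against XGFP+ PGCLCs 3 were lower, led by the cationic amino acid transporters Slc7a1 (log2 -1.32 ± 0.21 SE) and Slc7a3 (-1.04 ± 0.18 SE), and Slc43a1 was higher (0.75 ± 0.09 SE). Of 11 tested other ATF4 targets (12 listed), 7 were lower and 3 higher from EpiLCs to XGFP+ PGCLCs. Stc2, a secreted glycoprotein, was lower (log2 -3.11 ± 0.30 SE), whereas Ero1l, an oxidase of the endoplasmic reticulum, was higher (1.99 ± 0.15 SE).

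Upstream of ATF4, the list of eIF2 kinases, eIF2B and phosphatase subunits had 6 of 14 lower and 1 higher from EpiLCs to XGFP+ PGCLCs. Of all genes 57.3% were called in either direction in that comparison, so the number called is not read as a result about this list. The lower genes included Ppp1r15a (log2 -0.95 ± 0.10 SE), which encodes the stress-induced eIF2 phosphatase subunit, and the higher one was the PERK gene Eif2ak3 (0.56 ± 0.08 SE). Among 6 bZIP partners, Fosl1 (-4.92 ± 0.57 SE) and Atf5 (-1.77 ± 0.21 SE) were lower and Jdp2 was higher (1.28 ± 0.13 SE). The chaperones of the ATF6 and XBP1 branches, which respond to unfolded protein, were split, with 4 of 16 higher, 4 lower and a median of -0.01. The number of chaperones called was likewise not above the share over all genes. Manf (log2 -0.79 ± 0.07 SE) and Hspa5 (-0.61 ± 0.09 SE) were lower, and Sel1l was higher (0.66 ± 0.07 SE). All p-values behind these list counts are limma's.

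**Figure D3:**
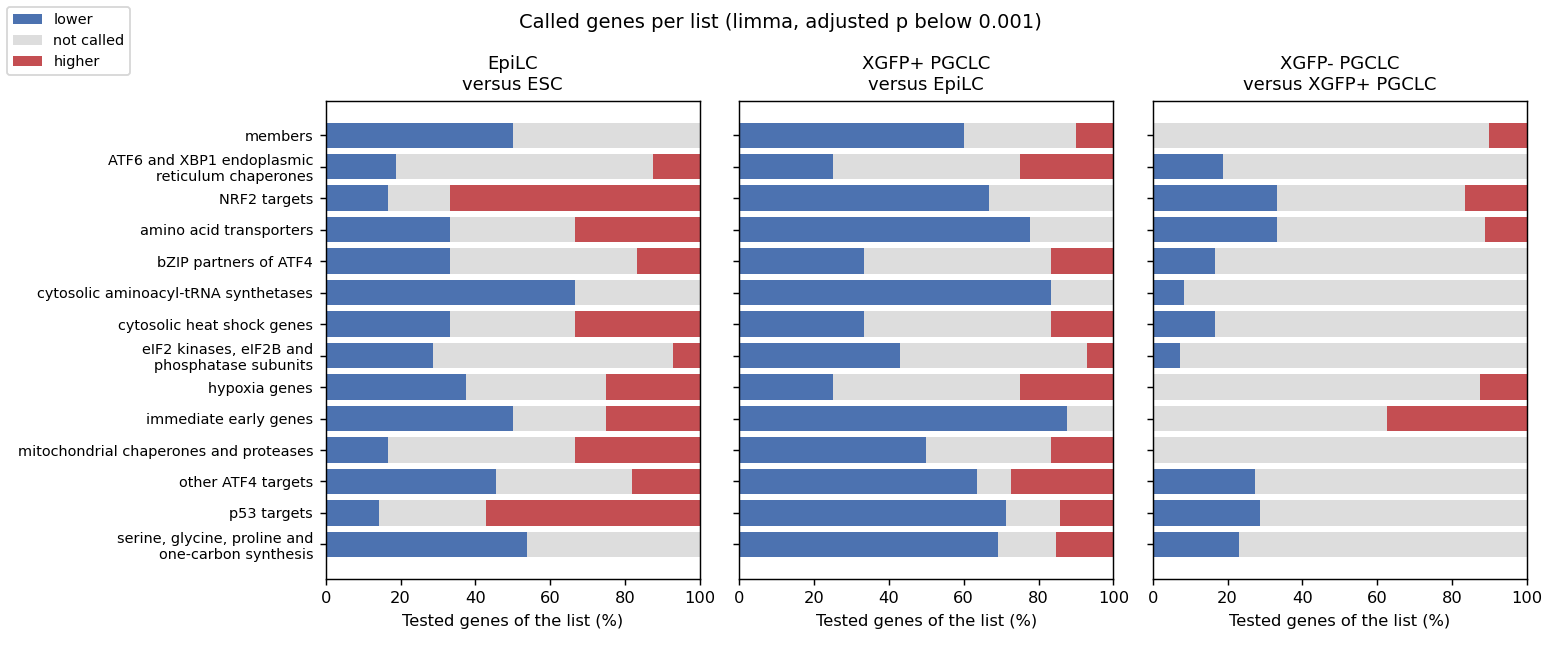
Percent of the tested genes of each list (y axis) that were lower (blue), not called (grey) or higher (red) in 3 bulk comparisons (limma, adjusted p below 0.001). Of the tRNA synthetases 10 of 12 and of the immediate early genes 7 of 8 were lower in XGFP+ PGCLCs than in EpiLCs, and the endoplasmic reticulum chaperones split 4 to 4. Of all genes tested, 29.5% were lower and 27.8% higher in that comparison.

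In the single cells, 486 passed the filters (at least 4000 genes, at least 10000 reads, at most 5% mitochondrial reads): 88 constitutive XGFP+, 125 XGFPhigh and 249 XGFPintermediate or XGFPlow rOvary cells, and 24 ESCs, and no 2 kept cells had identical counts (0). Each sorted population is 1 sample, since no culture or animal is named per cell, so there is no test between populations and the exact 95% binomial intervals cover counting error only. Median reads per cell were 354149 in constitutive XGFP+ cells, 636623 to 645474 in the other rOvary populations and 1103780 in ESCs. All constitutive XGFP+ cells were on flow cell lane 2, as were 14, 16 and 15 of the kept cells of the other rOvary populations. No read of any member was found in the 10 empty wells (0 reads), whose totals reached 242 reads.

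Asns and Psat1 had a read in most cells, in 97.7% and 95.5% of constitutive XGFP+ cells, 96.8% and 96.8% of XGFPhigh, 88.3% and 84.4% of XGFPintermediate and 92.6% and 86% of XGFPlow cells. Median Asns levels were 2400 counts per 1000000 reads of the cell (CPM) in ESCs, 669 in XGFPhigh, 559 in constitutive XGFP+, 417 in XGFPlow and 315 in XGFPintermediate cells. The quartile ranges of neighbours in this order overlapped among the rOvary populations (381 to 1349 CPM in XGFPhigh, 315 to 1000 in constitutive, 204 to 678 in XGFPlow and 137.2 to 497 in XGFPintermediate), while that of the ESCs, 1928 to 2882, lay above all of them. Psat1 kept the same order, with medians of 758, 219, 181, 105 and 87.3 CPM. Within lane 2, which holds all constitutive cells, the order of the rOvary populations differed: the Asns median was 559 CPM in 88 constitutive, 420 in 14 XGFPhigh, 283 in 16 XGFPintermediate and 194 in 15 XGFPlow cells, and Psat1 medians had this same order.

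Atf4 had a read in 24 of 24 ESCs, with a median of 363 CPM. In rOvary cells the medians were 85 CPM in XGFPlow, 76.2 in XGFPhigh, 72.2 in constitutive XGFP+ and 46.8 in XGFPintermediate cells, with overlapping quartile ranges. XGFPintermediate cells had the lowest share with an Atf4 read, 72.7% (interval 64.1 to 80.2), against 92% of XGFPhigh (85.8 to 96.1).

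Trib3, Chac1 and Nupr1 had a read in 91.7%, 75% and 95.8% of the 24 ESCs and in small shares of rOvary cells. Trib3 had a read in 24.8% of XGFPhigh cells (17.5 to 33.3), 15.9% of constitutive XGFP+ (8.98 to 25.2), 8.59% of XGFPintermediate (4.37 to 14.9) and 9.09% of XGFPlow cells (4.63 to 15.7). Chac1 had one in 33.6% (25.4 to 42.6), 28.4% (19.3 to 39), 7.03% (3.27 to 12.9) and 14% (8.40 to 21.5) in the same order. For Nupr1 the shares were 21.6% (14.7 to 29.8), 7.95% (3.26 to 15.7), 4.69% (1.74 to 9.92) and 4.96% (1.84 to 10.5).

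Over all lanes XGFPhigh cells had the highest share for each of the 3 genes, with intervals that overlapped those of constitutive cells. After thinning every cell to 100000 reads, which left out 1 ESC and no rOvary cell, a Trib3 read was left in 25 of 125 XGFPhigh cells, 15.9% of constitutive, 7.81% of XGFPintermediate and 8.26% of XGFPlow cells. A Chac1 read was left in 29.6%, 22 of 88 cells, 7.03% and 9.92% in the same order, and a Nupr1 read in 19.2%, 6.82%, 3.12% and 4.96%. Any of the 3 genes had a read in 45.6% of XGFPhigh (36.7 to 54.7), 35.2% of constitutive XGFP+ (25.3 to 46.1), 24.8% of XGFPlow (17.4 to 33.5) and 18.8% of XGFPintermediate cells (12.4 to 26.6). Within lane 2 alone these were 42.9% of 14, 35.2% of 88, 3 of 15 and 12.5% of 16 cells. For Trib3 alone the order did not hold within lane 2, with a read in 1 of 14 XGFPhigh, 14 of 88 constitutive, 2 of 16 XGFPintermediate and 1 of 15 XGFPlow cells.

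For each pair of the 3 genes, the share of cells with a read of one was higher among cells that had a read of the other. The 3 genes were chosen because they led 1 group of these cells, so this co-detection describes the choice and is not separate evidence. Of the 67 rOvary cells with a Trib3 read, 50.7% also had one of Chac1, against 14.9% of the cells without Trib3, and 38.8% had one of Nupr1, against 5.06%. All 3 genes were present in 24 of 462 rOvary cells: 17 XGFPhigh, 6 constitutive XGFP+, 1 XGFPlow and 0 XGFPintermediate. The levels were uneven, and 10 cells held 58.6% of all Trib3 reads, 62.9% of Chac1 and 64% of Nupr1 reads in rOvary cells. Atf3 was the most concentrated member, with 44.3% of its reads in 1 cell.

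Ddit4 had a read in 59.2% of XGFPhigh, 42.0% of constitutive, 27.3% of XGFPlow, 20.3% of XGFPintermediate cells and 20.8% of ESCs, and in 34.4%, 21.6%, 16.5%, 8.59% and 4.35% after thinning. Within lane 2 it had a read in 3 of 14 XGFPhigh and 37 of 88 constitutive cells. With all reads it was the 1 member whose share in ESCs, the deepest cells, was not above that of every rOvary population, and after thinning this held for Ddit3 and Slc7a11 as well. Ddit3 had a read in 50 of 125 XGFPhigh cells and in 30.7%, 30.6% and 21.9% of the others in that order and in 66.7% of ESCs, which became 30.4% of 23 ESCs after thinning. Atf3 had a read in 6.40% to 13.3% of rOvary cells, lowest in XGFPhigh. Slc7a11 had one in 12.5% to 28% of rOvary cells, and after thinning in between 1.56% and 10.7%, near the level of 1 read per cell, so no order is read from it.

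**Figure D4:**
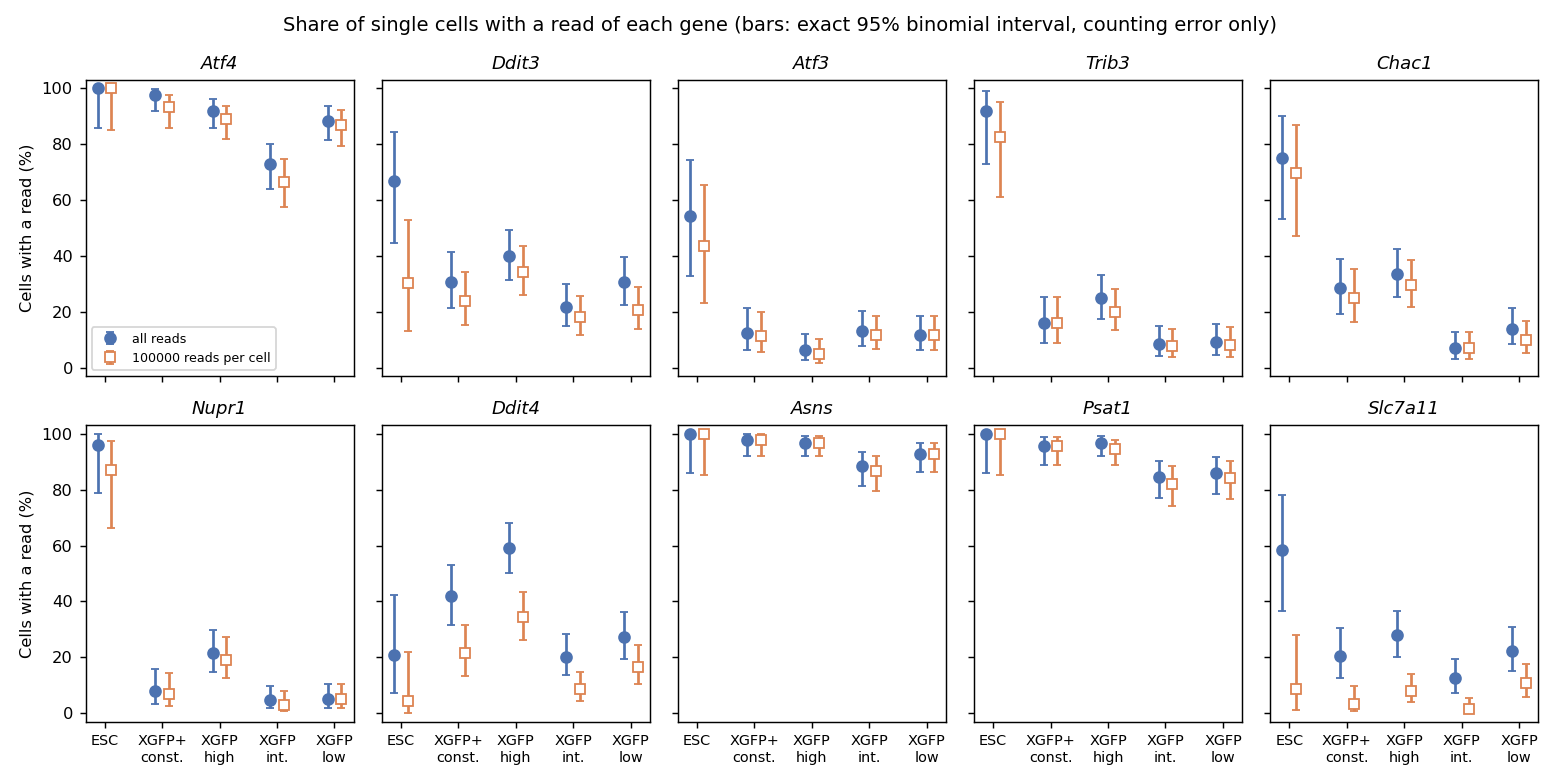
Percent of cells with a read (y axis) for each of the 10 genes by population (x axis), with all reads (filled circles) and after thinning to 100000 reads per cell (open squares); bars are exact 95% binomial intervals, counting error only. Over all lanes XGFPhigh cells have the highest rOvary shares for Trib3 (24.8%), Chac1 (33.6%), Nupr1 (21.6%) and Ddit4 (59.2%).

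Sorted cells differed in their level of Dazl, and a low Dazl level alone does not show whether other germ cell RNA is present. The summed germ cell markers were at least 224 CPM in XGFPhigh and 2.66 CPM in constitutive XGFP+ cells. In XGFPintermediate and XGFPlow cells the lowest sum was 0. Of the 462 rOvary cells kept, 401 had Dazl, a germ cell marker, above 1 on the natural-log scale of counts per 10000, and 61 did not. A read of Trib3, Chac1 or Nupr1 was found in 47.5% of these 61 cells (34.6 to 60.7), against 28.2% of the 401 (23.8 to 32.9). In XGFPlow cells the share was 50.0% of 30 cells with low Dazl and 16.5% of 91 with high Dazl, and in XGFPintermediate cells 58.3% of 12 with low Dazl and 14.7% of those with high Dazl. In XGFPhigh cells it was 57.1% of 7 and 44.9%, and in constitutive cells the order turned, with 3 of 12 and 36.8% of 76. The summed gonadal somatic markers exceeded 100 CPM in 9 of the 61 low-Dazl cells and in 3 of the 401, and reached 16194 CPM. Their part in the reads of the 3 genes was not tested.

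By Nanog, the following describes the pattern for which the members were chosen, so no test is given. The median Nanog level of the 462 rOvary cells was 16.6 CPM. Of the 231 cells above it, 21.6% had a Trib3 read, 29% a Chac1 read and 14.3% a Nupr1 read, against 7.36%, 11.3% and 5.63% of the 231 at or below it, with median depths of 584605 and 620519 reads per cell. Within XGFPhigh, Nupr1 had a read in 27 of 99 Nanog-high cells and in 0 of 26 Nanog-low cells, where the interval reaches 13.2%.

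The difference by Nanog was not seen in every population. For any of the 3 genes it was 49.5% of 99 against 30.8% of 26 XGFPhigh cells, 42.9% of 63 against 16% of 25 constitutive cells, 12 of 40 against 22.2% of 81 XGFPlow cells and 17.2% of 29 against 19.2% of 99 XGFPintermediate cells. Asns and Psat1 followed Nanog more closely in level: mean Asns was 1016 CPM in Nanog-high and 305 in Nanog-low cells, and mean Psat1 283 and 126.2. Across the 462 cells, Spearman's rho with Nanog was 0.70 for Asns and 0.50 for Psat1, 0.31 for Ddit4, 0.30 for Chac1, 0.23 for Trib3, 0.20 for Nupr1, 0.15 for Atf4 and -0.16 for Atf3. Within populations the order differed. For Asns rho was 0.65, 0.67, 0.46 and 0.65 within the constitutive, XGFPhigh, XGFPintermediate and XGFPlow cells. For Psat1 it was 0.44, 0.60, 0.22 and 0.12, for Ddit4 0.08, 0.22, 0.28 and 0.11, and for Chac1 0.35, 0.30, -0.02 and 0.03 in the same order. Trib3 and Nupr1 reached 0.36 and 0.32 in XGFPhigh cells and at most 0.07 in XGFPintermediate and XGFPlow cells. Both values of a point come from the same cell and share its depth. Asns and Psat1 had a read in 93.5% and 90.3% of the 462 cells, Trib3 and Nupr1 in 14.5% and 9.96%. Many ties at 0 limit rho, so part of the difference between members may be detection.

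Other amino acid genes had the same lean. Among genes with a read in at least 20% of rOvary cells, 11 of 12 serine, glycine, proline and one-carbon genes and 8 of 8 amino acid transporters had a higher mean CPM in Nanog-high cells, with median log2 ratios of 0.74 and 0.73, against -0.21 and 35.7% higher over all 10375 such genes. Slc7a3 was the extreme, with mean levels of 386 and 24.2 CPM. Of the tRNA synthetases 10 of 11 were higher (median log2 ratio 0.41), whereas of the endoplasmic reticulum chaperones 4 of 16 were (median -0.15), Hspa5 at 784 and 1093 CPM. The lean was also seen in lists outside amino acid metabolism, with 5 of 6 mitochondrial chaperones and proteases (median 0.57), 5 of 6 hypoxia genes (0.36), 3 of 4 cytosolic heat shock genes (0.50) and 5 of 7 p53 targets (0.21) higher, and of the immediate early genes 1 of 7 was (-1.77). Meiotic markers, 0 of 5 higher, and germ cell markers, 3 of 5 higher, moved with the same split, and populations contribute unequally to it.

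Clustering of the 401 cells with high Dazl gave 5 clusters, which are given by number. Trib3, Chac1 and Nupr1 were chosen for leading a Nanog-rich group of these cells, so their shares by cluster describe that choice. Cluster 5, with 47 cells (32 XGFPhigh, 14 constitutive XGFP+, 1 XGFPintermediate), had the highest mean Nanog level, 470 CPM, and held a Trib3 read in 59.6%, a Chac1 read in 59.6% and a Nupr1 read in 51.1% of its cells. The other 4 clusters ranged from 0% to 17.5% for Trib3, from 3.70% to 24.6% for Chac1 and from 0% to 5.56% for Nupr1. Ddit3 and Ddit4 had their highest shares in the same cluster, 55.3% and 68.1%. So did Slc7a11 with 44.7%, which fell to 6 of 47 cells after thinning, near the level of 1 read per cell. Atf3 had its highest share in cluster 2 (20.2%, against 14.9% in cluster 5) and Atf4 in cluster 1 (97%, against 95.7%). Most cells of clusters 1, 2, 3 and 5 had an Atf4 read, so its share says little about its level. The median Atf4 level was highest in cluster 5, at 102 CPM against at most 74.4 in the others, with quartile ranges that overlapped those of clusters 1 to 3. Median Asns and Psat1 levels were also highest in cluster 5, at 1634 and 610 CPM, against at most 580 and 177 in the others. The median depth of cluster 5, 537718 reads, lay within the range of the others (485263 to 657967), its mitochondrial share was the lowest (1.82% against 2.46% to 3.03%), and its mean Dazl, 1036 CPM, was the lowest as well.

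When all genes of the ATF4 and other stress lists were left out of the clustering, 64 cells (43 XGFPhigh, 20 constitutive, 1 XGFPintermediate) formed the cluster with the highest mean Nanog, 407 CPM. It held all 47 cells of the former cluster 5, 100% of that cluster and 73.4% of its own cells. Trib3 had a read in 43.8%, Chac1 in 60.9% and Nupr1 in 37.5% of the 64. Within the XGFPhigh sort, 72.1% of 43 cells in it had a read of any of the 3, against 29.3% of 75 cells outside, and within the constitutive sort 14 of 20 against 14 of 56. The 3 genes were chosen for leading such a group, so this contrast repeats the choice and is not separate evidence.

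The cluster at the other end, cluster 4 with 54 cells, had the highest mean of Sycp3, a component of the meiotic chromosome axis, at 1558 CPM, and mean Nanog of 0.318 CPM. It had an Atf4 read in 46.3% of cells, where the other clusters had 85.3% to 97%, an Asns read in 74.1%, Chac1 in 3.70%, and Trib3 and Atf3 in 0 of 54. Nupr1 had a read in 5.56% of its cells, against 0% to 4.48% in clusters 1 to 3. Its median depth was 619548 reads, and its median of 6672 genes per cell was the lowest (7566 to 8226 in the others). This cluster was mostly XGFPintermediate (34 cells) and XGFPlow (12 cells).

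**Figure D5:**
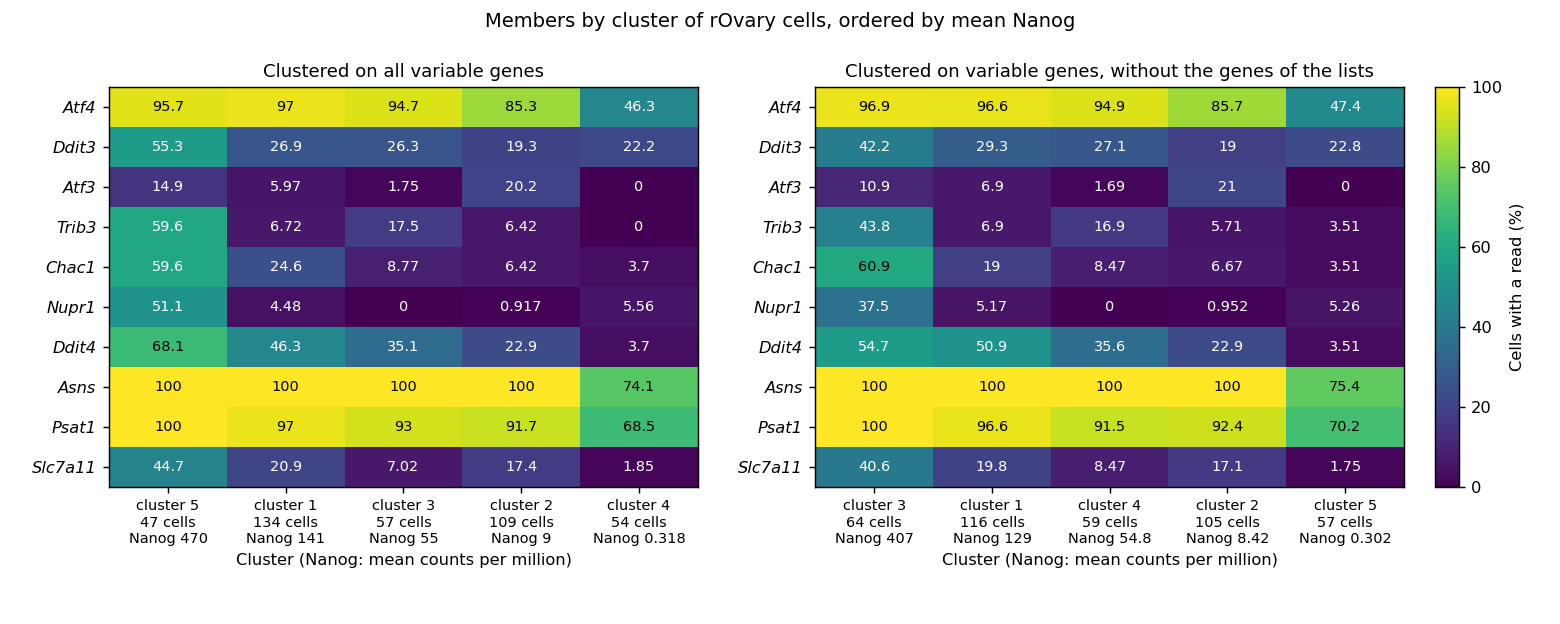
Percent of cells with a read of each gene (colour and numbers) by cluster, ordered by mean Nanog in CPM, for clusters made with all variable genes (left) and without the genes of the stress lists (right). The Nanog-richest cluster has the highest Trib3, Chac1 and Nupr1 shares in both, and the last cluster has the lowest Atf4 and Asns shares.

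The 10 other genes whose rank over the 462 rOvary cells was most like the mean of scaled Trib3, Chac1 and Nupr1 levels were Nr0b1, Stmn2, Pycr1, Gpc4, Eif1, Pfkp, Ftl1, Klf9, Sfxn1 and Zfp57, among 10368 genes with a read in at least 20% of cells. Their Spearman's rho ran from 0.33 to 0.36, which is weak in counts this sparse. Within XGFPhigh cells Pycr1 reached 0.51 and Nr0b1, an orphan nuclear receptor of the pluripotency network, 0.50, whereas in XGFPintermediate cells Nr0b1 had 0.03. Pycr1 is the 1 gene of the 10 that is also on a pathway list.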

How the data were processed

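Bulk values are a signal that the authors deposited: reads aligned with STAR to mm10 with strain SNPs masked, counted per gene with HTSeq 0.6.1 (named in the submitters' processing notes) and divided by DESeq2 size factors. Steps between values gave back whole reads (100% of values within 0.05 of a whole number in every library). Single-cell values are read counts per gene and cell as deposited, without molecular identifiers. Allelic ratio tables cover the X and chromosome 13, where no member lies, and were not used, nor were 4 columns of neural progenitor cells.

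Members and lists were chosen with earlier results of these data known. limma 3.58.1 (limma-trend) was fitted to log2(normalized count + 1) of all 16 libraries, for 16281 genes with a mean above 10, with Benjamini-Hochberg adjustment over all of them. Gene symbols came from GENCODE vM21; 238 bulk identifiers had none. Single cells were scaled to CPM and clustered with Seurat 5.3.0 (2000 variable genes, 20 components, resolution 0.8). Wells were sorted to hold 1 cell, and doublets were not called. All 10 members are named. List genes are named from among the 4 largest differences of those called in a list and comparison, and not all of these are named. Eif2ak3, and Hspa5 and Slc7a3 in single cells, were chosen after their values were seen. Same-numbered XGFP- and XGFP+ libraries deviated together (correlations 0.135 to 0.307), so the numbers pair these 2 groups; other group pairs did not pass 0.1 for all numbers. Alternatives were pseudocounts, filters, edgeR 4.0.16 and DESeq2 1.42.0 on recovered reads, quantile normalization, left-out libraries, the replicate block, cell filters and thinning. Tests were checked on simulated data.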

Additional observations from a re-analysis of the deposited data

Results flagged for a closer look

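Of 40 sets of 4 libraries (10 members in 4 bulk groups), 4 had 1 library far from the others by Dixon's ratio of its gap to the whole range, at the 95% limit. Chance alone flags about 1 set in 20. Psat1 was at 3479 normalized counts in XGFP- PGCLC library 2, below the others at 4149 to 4272. Slc7a11 was at 320 normalized counts in EpiLC library 2, above the others at 266 to 269. Ddit4 was at 762 normalized counts in XGFP+ PGCLC library 3, below the others at 988 to 1035, and at 1236 in XGFP- PGCLC library 3, below the others at 1690 to 1766. Without the latter library the Ddit4 difference between XGFP- PGCLCs and ESCs turned from -0.03 to 0.08 log2 units, called in neither case.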

How the results depend on the processing

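Counts of called members held within 1.5 times under all other settings for the comparisons of both PGCLC groups with EpiLCs and ESCs. For EpiLCs against ESCs (5 called) leaving out 1 library gave 3 to 6, with 3 without EpiLC library 3, ESC library 1 or ESC library 2, each a fit with fewer samples. For XGFP- against XGFP+ PGCLCs (1 called) the count was 0 with a pseudocount of 10, 0 with a mean above 100 and 0 with edgeR's quasi-likelihood test. Leaving out 1 library gave 0 to 2, and the cause was not tested. At an adjusted p below 0.05 the count was 6. The share of all genes at that looser threshold is not given here, so the 6 are not read as a result about the members. Signs that turned belonged to genes not called. Over the fits without 1 library, Atf3 in EpiLCs against ESCs ran from -0.06 (without ESC library 3) to 0.56, Ddit3 in XGFP- against XGFP+ PGCLCs from -0.04 (without XGFP+ library 1; -0.02 without XGFP- library 3) to 0.20, and Ddit4 in XGFP- PGCLCs against ESCs from -0.29 to 0.29 (without ESC library 2; 0.08 without ESC library 1 or XGFP- library 3). In single cells, the XGFPlow share with a read of Trib3, Chac1 or Nupr1 went from 24.8% to 16.5% with high-Dazl cells alone, and the Nanog-high share from 40.3% to 48.3% when cells above the upper quartile of Nanog were taken. The split by Dazl side by side was added after seeing the data.

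With the replicate number as a block, 8 members were called from EpiLCs to XGFP+ PGCLCs in place of 7, Ddit4 being added (limma adjusted p = 0.00083), and the block changed no other call: 5, 8, 1, 9 and 9 members in the other comparisons. For group pairs other than XGFP- and XGFP+ PGCLCs, same-number correlations ran from -0.0105 to 0.160, so those libraries share only a number. Depth limits the single-cell shares, since a cell without a read may still express the gene, and 2 to 5 reads per library limit Slc7a11 in XGFP+ PGCLCs.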

Other observations

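Other stress lists took courses of their own in bulk. Of 6 NRF2 targets, which serve glutathione and redox balance, 4 were higher and 1, Nqo1, was lower in EpiLCs than in ESCs, with Gclc, a subunit of the enzyme that starts glutathione synthesis, up by 1.04 ± 0.05 (SE) log2 units. From EpiLCs to XGFP+ PGCLCs 4 were lower and 0 higher, with Hmox1, the heme oxygenase, at log2 -2.39 ± 0.14 SE. Of 7 p53 targets, 4 were higher and 1 lower in EpiLCs than in ESCs, led by Ccng1 (log2 1.73 ± 0.11 SE), and 5 were lower and 1 higher from EpiLCs to XGFP+ PGCLCs, again led by Ccng1 (log2 -2.73 ± 0.11 SE). Hspa1a, an inducible heat shock gene with a near-identical neighbour, Hspa1b, that can share its reads, was at log2 3.21 ± 0.35 SE and then -3.13 ± 0.35 SE over the same steps. All calls are limma's at an adjusted p below 0.001. Of all genes tested, 24.9% were higher and 22.9% lower in EpiLCs than in ESCs. From EpiLCs to XGFP+ PGCLCs these shares were 27.8% and 29.5%.

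Between the PGCLC groups, 3 of 8 immediate early genes were higher in XGFP- PGCLCs and 0 lower: Jun (log2 1.75 ± 0.20 SE), Ier3 (1.37 ± 0.24 SE) and Fos (1.16 ± 0.18 SE). Of the hypoxia genes 1 of 8 was called, Slc2a1 (0.63 ± 0.13 SE). Of all genes tested, 23.8% were called in this comparison (11.3% higher, 12.5% lower).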
